A study of Mus musculus with 12 samples.

Results

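The 37 Hox genes examined here were taken from expression arrays of sorted mouse mammary epithelial cells, which measured 19938 genes in all. Members were all genes whose symbol is Hox followed by a cluster letter and a paralog number, each read from its only probeset with a single gene symbol. Hoxb8 shares its probeset with Hoxb7 and was not analysed here. The measured genes were 10 of the HoxA cluster on chromosome 6, 9 of HoxB on chromosome 11, 9 of HoxC on chromosome 15 and 9 of HoxD on chromosome 2.

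Hox genes encode homeodomain transcription factors that give cells along the body axis a positional identity. They lie in 4 clusters, and within a cluster the order of the genes, counted by the paralog number, matches the order in which they are switched on along the embryo. In adult tissues a cell usually keeps the part of each cluster that its position of origin opened, with Polycomb proteins holding the rest silent. In the mouse mammary gland, loss of the group 9 paralogs Hoxa9, Hoxb9 and Hoxd9 together impairs growth of the gland in pregnancy, and Hoxc8 helps to set where the placodes arise.

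The series holds 12 arrays in 4 groups of 3, all from females aged 10 to 14 weeks that carried MMTV::Cre and the mT/mG reporter, in which Cre turns a cell from red to green. Wnt4-deleted mice were Wnt4fl/fl, and the WT mice, which carried Cre and the reporter as well, were Wnt4wt/wt. Green cells were sorted by the surface protein CD24 into a CD24 high fraction, named luminal by the submitters, and a CD24 low fraction, named myoepithelial. The groups were thus Wnt4-deleted CD24 high (arrays 4, 12 and 16), WT CD24 high (arrays 2, 10 and 14), Wnt4-deleted CD24 low (arrays 3, 11 and 15) and WT CD24 low (arrays 1, 9 and 13), numbered as in the sample titles. The MMTV promoter drives Cre mainly in mammary epithelium but also in some other cells, and the labels call the tissue both glands and grafts. They do not say whether arrays came from separate animals or pools, so the p-values rest on array-to-array spread, which may be technical only. The arrays were made to compare both epithelial compartments between the genotypes.

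The labels of the fractions held: all 10 general luminal markers measured were higher in CD24 high cells and all 10 myoepithelial markers were lower. Wnt4, the targeted gene, read 6.11, 6.46 and 6.78 in Wnt4-deleted CD24 high cells, against 7.42, 7.92 and 7.62 in WT CD24 high cells (RMA units on the log2 scale, as for all levels below), and 6.20, 6.66 and 6.28 in Wnt4-deleted CD24 low cells, against 6.49, 6.45 and 6.63 in WT CD24 low cells. Its difference of -1.20 (SE 0.19) in CD24 high cells did not pass the test across all genes (limma, Benjamini-Hochberg adjusted p = 0.416). The CD24 low arrays were not alike in other cell types. The mean of 8 endothelial markers was 6.67 and 6.75 on arrays 3 and 1, against 8.27 to 9.38 on the other 4, and the mean of 8 skeletal muscle markers was 8.04 and 7.07 on arrays 3 and 1, against 5.23 to 5.58. The mean of 8 fibroblast markers was 8.73 and 9.21 on arrays 11 and 9, against 6.12 to 7.23 on the other 4.

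Most Hox genes gave little signal in either fraction. As the files hold no detection call, the 95th percentile of the group means of 1027 olfactory receptor genes, which mammary cells are not known to use, served as a reference level. It was 4.96 in Wnt4-deleted CD24 high cells, 5.07 in WT CD24 high cells, 5.07 in Wnt4-deleted CD24 low cells and 5.12 in WT CD24 low cells. Of the 37 Hox genes, 13, 11, 14 and 12 lay above it in these groups, against 65.7% to 66.8% of all genes. Probesets differ in how strongly they bind, so the reference sorts genes only roughly.

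The Hox genes above the reference in all 4 groups were 11, and 8 of them belonged to HoxB: Hoxb1, Hoxb2, Hoxb3, Hoxb4, Hoxb5, Hoxb6, Hoxb7 and Hoxb9, which is the whole measured cluster except Hoxb13. The other 3 were Hoxa4, Hoxa6 and Hoxa7. No HoxC or HoxD gene was above it in all 4 groups. Hoxd9 passed it in every group except WT CD24 high, Hoxc9 stayed within 0.1 of it and passed in both Wnt4-deleted groups, and Hoxd8 passed in Wnt4-deleted CD24 low cells only. The other 23 genes were not above it in any group, among them all of paralog groups 10 to 13, the posterior genes that pattern limb, genital and tail structures, and Hoxa5, Hoxc6 and Hoxc8.

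**Figure D1:**
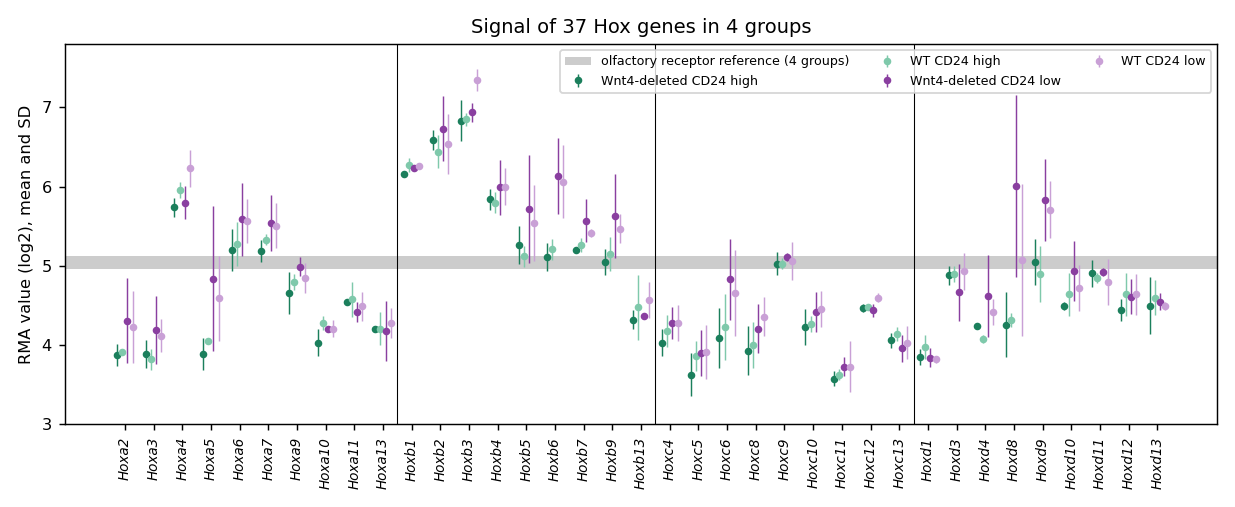
Mean RMA value (log2) and SD (bars, n = 3 arrays) of each of the 37 Hox genes in 4 groups, ordered by cluster and paralog number, with the range of the olfactory receptor reference over the groups, 4.96 to 5.12, in grey. Most HoxB genes lie above the band in every group, and most HoxC and HoxD genes lie on or below it; heights of different genes are not comparable in other ways.

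Between the fractions, Hoxb6, Hoxd8, Hoxd9 and Hoxb3 were lower in CD24 high than in CD24 low cells, and no Hox gene was higher. The comparison was the mean of the differences within each genotype, CD24 high minus CD24 low, and a gene was called at an adjusted p below 0.05 over all genes. The 4 called genes were 10.8% of the Hox genes, whereas 27.7% of all genes tested were called, 13% of all genes as lower in CD24 high cells. The share of Hox genes that differed was thus below the background. An unadjusted p under 0.05 by limma was found for 9 of the 37 Hox genes and for 7283 of all 19938 genes. The shares are not alike in signal, as 23 of the 37 were above the reference in no group, whereas 65.7% to 66.8% of all genes lay above it. Without dim genes the shares were 33.3% of 6 Hox genes and 41.5% of all genes. The median Hox difference was -0.18 and 31 of 37 genes were below 0, with a range of -1.26 to 0.10, against a median of 0.01 over all genes.

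Hoxb6, a gene of the middle of its cluster that is active in trunk mesoderm and blood precursors of the mouse, showed the clearest difference. It read 5.14, 5.28 and 4.92 in Wnt4-deleted and 5.31, 5.06 and 5.26 in WT CD24 high cells, against 5.62, 6.20 and 6.58 in Wnt4-deleted and 5.74, 5.85 and 6.59 in WT CD24 low cells. All 6 CD24 high arrays lay below all 6 CD24 low arrays, which held for no other Hox gene and for 16.5% of all genes in either direction. The difference was -0.94 (95% interval -1.34 to -0.53, adjusted p = 0.00263), a 1.91-fold lower signal in CD24 high cells, whose level of 5.16 ± 0.15 (SD, n = 6) was close to the olfactory reference.

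Hoxd8 and Hoxd9 are neighbours in the HoxD cluster. Hoxd9 read 4.84, 5.37 and 4.93 in Wnt4-deleted and 4.51, 5.20 and 5.0 in WT CD24 high cells, against 5.27, 5.93 and 6.29 in Wnt4-deleted and 5.41, 5.63 and 6.10 in WT CD24 low cells. A single CD24 high array, 12, overlapped the lowest CD24 low array. The difference was -0.80 (95% interval -1.24 to -0.36, adjusted p = 0.0112).

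Hoxd8 had the greatest difference and the greatest spread. Its signal was 4.03, 4.73 and 4.01 in Wnt4-deleted and 4.31, 4.41 and 4.23 in WT CD24 high cells, all below the reference, against 4.71, 6.45 and 6.89 in Wnt4-deleted and 4.06, 5.20 and 5.96 in WT CD24 low cells. Arrays 1 and 3 lay within the CD24 high range and the other 4 CD24 low arrays above it. The difference was -1.26 (95% interval -2.11 to -0.41, adjusted p = 0.0313), and the SD over 6 arrays was 0.27 in CD24 high and 1.08 in CD24 low cells. The call was lost in 12 of 24 alternative fits, by a reversed estimate in 1 of them.

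Hoxb3, which in the mouse acts in the hindbrain and in thyroid and pharyngeal development, was the smallest of the calls. It read 6.53, 6.99 and 6.96 in Wnt4-deleted and 6.86, 6.76 and 6.92 in WT CD24 high cells, against 6.96, 7.04 and 6.81 in Wnt4-deleted and 7.25, 7.29 and 7.51 in WT CD24 low cells. The WT CD24 low arrays were above all others and the Wnt4-deleted CD24 low arrays overlapped the CD24 high arrays. The difference was -0.31 (95% interval -0.53 to -0.09, adjusted p = 0.0416), a 1.24-fold lower signal in CD24 high cells. The call was lost in 17 of 25 alternative fits, among them a second quantile normalization (-0.31, adjusted p = 0.0529), median centring (-0.24, adjusted p = 0.0954) and an intensity trend (-0.31, adjusted p = 0.0685), while the estimate stayed below 0 in all 25.

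**Figure D2:**
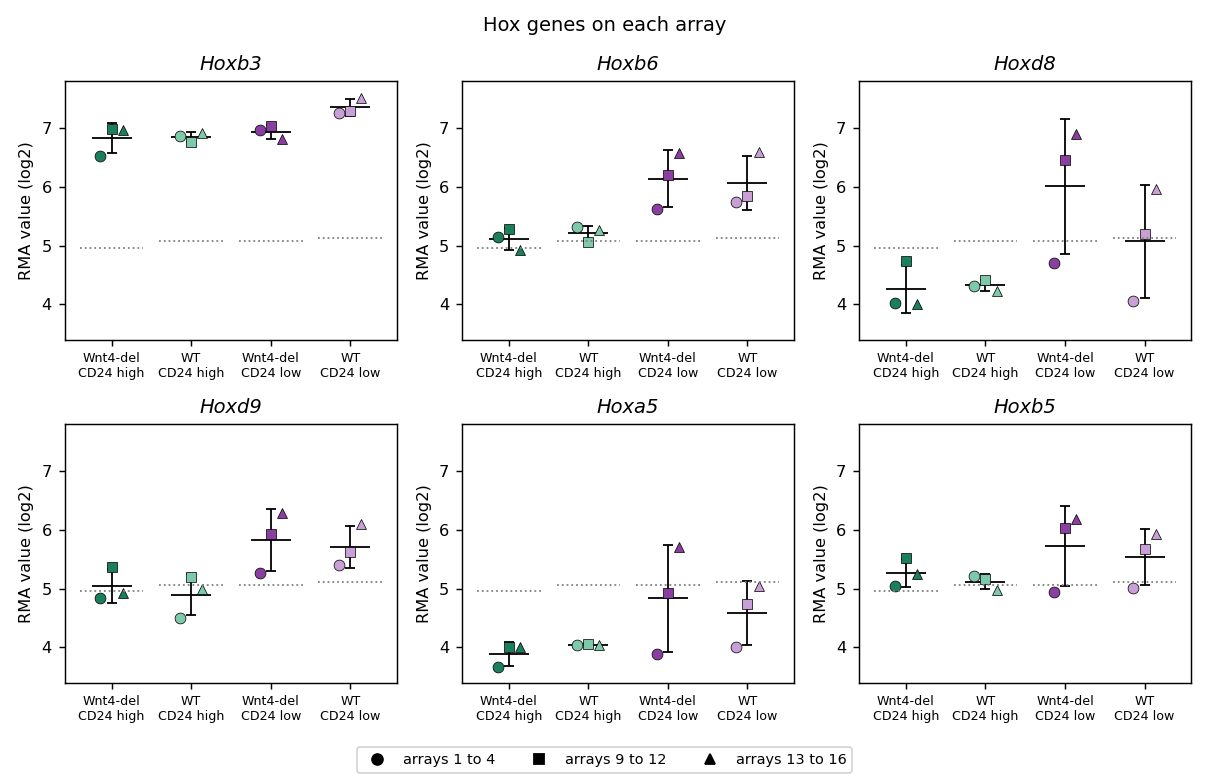
Signal (RMA, log2) of the 4 called genes and of Hoxa5 and Hoxb5 on every array, by group; symbols mark the run of array numbers, black lines give the mean and SD (n = 3), and dotted lines the olfactory receptor reference of the group. Arrays 1 and 3 (circles) are the lowest CD24 low arrays for each gene shown except Hoxb3.

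The start-site windows of Hoxd8 and Hoxd9 are shown because both genes were called and lie side by side, and because the series asks about Wnt signalling, whose nuclear factors TCF and LEF bind a short core motif. Each window runs from 250 bases before to 50 after the start in RefSeq (GRCm38.p6), chr2:74704365-74704664 for Hoxd8 and chr2:74697513-74697812 for Hoxd9, both on the plus strand. Capitals mark the TCF/LEF core CTTTGAT or its reverse complement ATCAAAG.
Hoxd8: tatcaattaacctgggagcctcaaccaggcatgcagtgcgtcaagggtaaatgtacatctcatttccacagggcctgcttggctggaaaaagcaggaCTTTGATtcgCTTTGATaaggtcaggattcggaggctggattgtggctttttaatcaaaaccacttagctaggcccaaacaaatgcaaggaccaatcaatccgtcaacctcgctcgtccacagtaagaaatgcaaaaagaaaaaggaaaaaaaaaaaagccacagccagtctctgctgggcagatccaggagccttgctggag
Hoxd9: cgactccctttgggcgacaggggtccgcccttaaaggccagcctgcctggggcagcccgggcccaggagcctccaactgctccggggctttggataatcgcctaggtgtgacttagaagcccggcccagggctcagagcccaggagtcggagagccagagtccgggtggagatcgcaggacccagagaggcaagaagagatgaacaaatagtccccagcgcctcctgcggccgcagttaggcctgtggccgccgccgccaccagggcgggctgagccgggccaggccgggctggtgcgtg
The Hoxd8 window held 2 copies of the core and the Hoxd9 window none. Of 32851 promoter windows of the same length, 3.73% held at least 1 copy and 0.1% at least 2, and of 24 Hox windows, which cover 21 of the measured genes and Hoxb8, only that of Hoxd8 held any. The Hoxd8 window had 6 CpG and 46.7% G or C, against 20 CpG and 68.3% in the Hoxd9 window, with a median of 7 CpG over all windows. The PBX/HOX motif TGATTNAT, searched on both strands, was in neither window, in 2 of the 24 and in 3.22% of all windows; TATAAA was in neither, in 4 of the 24 and in 13.6% of all. A match in letters is not evidence of binding. Hoxb3 and Hoxb6 had no entry in the table.

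By position, the median estimate was furthest below 0 in the middle of the clusters. Paralog groups 5 to 8 had a median difference of -0.39, with all 10 genes below 0 and 2 called. Groups 1 to 4 had a median of -0.17 (9 of 11 below 0, 1 called), and groups 9 to 13 a median of -0.06 (12 of 16 below 0, 1 called). By cluster, the medians were -0.23 for HoxA (0 of 10 called), -0.26 for HoxB (2 of 9), -0.16 for HoxC (0 of 9) and -0.08 for HoxD (2 of 9). Hoxd9, outside the middle groups, differed by -0.80. No gene of groups 10 to 13 lay above the olfactory reference in any group, and differences of dim genes are understated by RMA. For groups 10 to 13, position and signal level can thus not be told apart here. Groups 1 to 4 (Hoxa4, Hoxb1, Hoxb2, Hoxb3, Hoxb4) and groups 5 to 8 (Hoxa6, Hoxa7, Hoxb5, Hoxb6, Hoxb7) both held genes above the reference in all 4 groups. The medians are descriptions, and the contrast between positions was not tested.

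**Figure D3:**
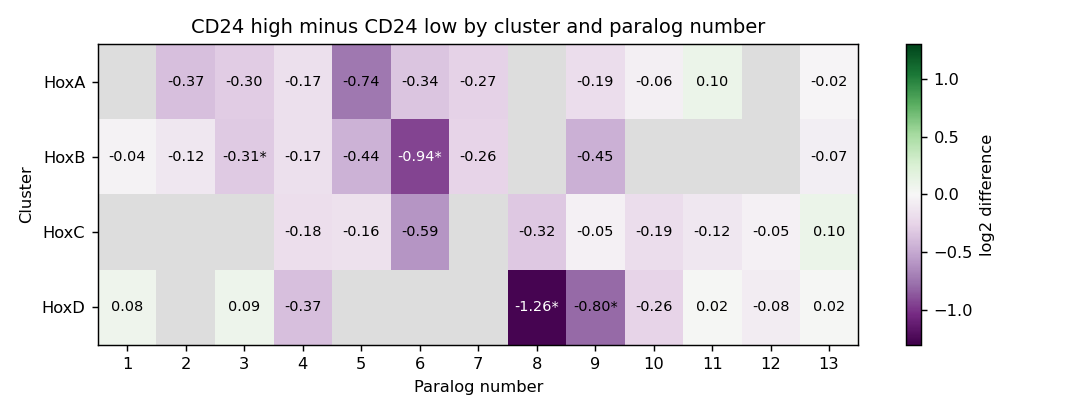
Log2 difference between fractions, CD24 high minus CD24 low, of each measured Hox gene by cluster and paralog number; purple is lower in CD24 high cells, an asterisk marks an adjusted p below 0.05, and grey cells hold no measured gene. Among the middle paralogs Hoxd8 is at -1.26 and Hoxb6 at -0.94, and outside them Hoxd9 is at -0.80. No gene of groups 10 to 13 lay above the olfactory reference in any group.

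Among the Hox genes not called, 5 had an unadjusted p under 0.05, and each was lower in CD24 high cells by estimate. Called or not, 7283 of all 19938 genes passed that threshold. Hoxa5, whose loss disturbs the mouse mammary gland, read 3.66 to 4.06 in CD24 high cells and 3.89 to 5.71 in CD24 low cells, a difference of -0.74 (95% interval -1.34 to -0.15, adjusted p = 0.0651). With the runs of array numbers as a fixed block, Hoxa5 was called as well (-0.74, SE 0.20, adjusted p = 0.0177), which made 5 Hox genes, 13.5% against 30.0% of all genes in that fit. Hoxc6 differed by -0.59 (adjusted p = 0.0965), Hoxb9 by -0.45 (adjusted p = 0.067), Hoxd4 by -0.37 (adjusted p = 0.0928) and Hoxb7 by -0.26 (adjusted p = 0.0626). In the group 9 paralogs, Hoxa9 differed by -0.19 and Hoxc9 by -0.05, so that Hoxd9 alone of the 4 was called. Hoxb1 and Hoxb2, both well above the reference, differed by -0.04 (95% interval -0.18 to 0.11) and -0.12 (95% interval -0.47 to 0.24). Hoxb1 read only 6.12 to 6.38 over the 12 arrays, with the same value, 6.2226, on arrays 10, 14 and 15. Whether its level reflects expression or probe background was not tested.

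Within a genotype fewer genes passed. In Wnt4-deleted cells only Hoxb6 was called (-1.02, SE 0.26, adjusted p = 0.0199), 2.70% of the Hox genes against 16.4% of all genes, and Hoxd8 just missed (-1.76, SE 0.55, adjusted p = 0.0502). In WT cells Hoxb3 (-0.50, SE 0.14, adjusted p = 0.0336) and Hoxb6 (-0.85, SE 0.26, adjusted p = 0.0469) were called, 5.41% of the Hox genes against 16.1% of all genes. For Hoxd8 the WT difference was -0.76 (SE 0.55, adjusted p = 0.456). Whether the fractions differed unequally in the genotypes is given with the Wnt4 comparisons, where no Hox gene was called.

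The fraction differences depended on which CD24 low arrays entered. In the titles the numbers form 3 runs, 1 to 4, 9 to 12 and 13 to 16, each with 1 array of every group, and the labels do not say what a run is. Hox genes lower in CD24 high cells were 20 of 37 in the first run (median difference -0.01), 31 in the second (-0.19) and 31 in the third (-0.31). For Hoxd8 the mean of both genotypes was -0.21, -1.26 and -2.30 in the 3 runs, for Hoxa5 -0.09, -0.79 and -1.35, and for Hoxb6 -0.46, -0.85 and -1.50. Hoxb3 did not follow this order, at -0.41, -0.29 and -0.21.

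Within the CD24 low arrays, 16 of 37 Hox genes (43.2%) had all of arrays 9, 11, 13 and 15 above both arrays 1 and 3, against 11.9% of all genes. None had all 4 below, against 15.9% of all genes. This split of the arrays was not one of the 6 comparisons fitted, and the shares are descriptions without a test. The gap between the means was 1.74 for Hoxd8 (5.20 to 6.89 on the 4 arrays, 4.06 and 4.71 on arrays 1 and 3), 1.16 for Hoxa5 (4.74 to 5.71, against 3.89 to 4.0) and 0.99 for Hoxb5 (5.67 to 6.19, against 4.94 to 5.01). In the mouse Hoxb5 activates Kdr, a receptor gene of the endothelium, in vascular precursors. Whether this bears on the Hoxb5 gap was not tested. The gap was 0.05 for Hoxb3, 0.03 for Hoxb1 and -0.27 for Hoxa13.

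The same 4 arrays carried the higher endothelial signal, but this was not particular to endothelial markers. The means of the 8 fibroblast, 6 pericyte, 6 adipocyte and 8 immune markers were also lowest on arrays 3 and 1. The fibroblast mean was 6.12 and 6.13 on arrays 3 and 1, against 6.28 to 9.21 on the other 4. The skeletal muscle, general luminal and myoepithelial means were highest on arrays 3 and 1. The mean of the endothelial list (Pecam1, Cdh5, Kdr, Tek, Emcn, Eng, Esam and Vwf) was 5.13 to 6.56 on the CD24 high arrays and 6.67 to 9.38 on the CD24 low arrays, and 7 of its 8 genes were called lower in CD24 high cells. All 8 were above the olfactory reference in both CD24 low groups and 5 in both CD24 high groups. With the endothelial mean of each array as a covariate, Hoxb6 differed by -0.31 (SE 0.23, adjusted p = 0.474), Hoxb3 by -0.17 (SE 0.18, adjusted p = 0.631), Hoxd9 by 0.00 (SE 0.20) and Hoxd8 by 0.49 (SE 0.24, adjusted p = 0.226), and none of the 4 kept its call. Of the 37 estimates, 19 turned sign from the fit without the covariate. Hoxb5 was then the single Hox gene called, as higher in CD24 high cells (0.55, SE 0.17, adjusted p = 0.0463). The covariate itself separated the fractions, so it removed part of any fraction difference as well, and 16% of all genes were then called. With the fibroblast mean as the covariate, Hoxb6 alone was called (-0.93, SE 0.25, adjusted p = 0.0255), against 19.0% of all genes. The estimates of the others stayed below 0, at -0.31 (SE 0.14) for Hoxb3, -0.67 (SE 0.27) for Hoxd9 and -0.82 (SE 0.48) for Hoxd8. The part of endothelial, fibroblast or muscle cells in the Hox differences was not tested, and more Hox RNA per cell and more cells that hold it cannot be told apart in these sorted pools.

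Arrays 1 and 3 held the lowest CD24 low values of 16 of the 37 Hox genes. Leaving them out therefore had to lower the estimates of those genes, and the counts that follow are no separate evidence. Without arrays 1 and 3, 13 Hox genes were called, all lower in CD24 high cells, 35.1% against 28.0% of all genes. They included Hoxb6 (-1.15, SE 0.16), Hoxd8 (-1.84, SE 0.20), Hoxd9 (-1.01, SE 0.18), Hoxa5 (-1.13, SE 0.16) and Hoxb5 (-0.76, SE 0.12), but not Hoxb3 (-0.32, adjusted p = 0.0756). Leaving out array 3 alone also gave 13 (29.1% of all genes called). Leaving out arrays 9 and 11, the pair with the highest fibroblast signal, gave 2, Hoxb6 and Hoxd9 (22.3% of all genes called), with Hoxd8 at -1.12 (SE 0.46).

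**Figure D4:**
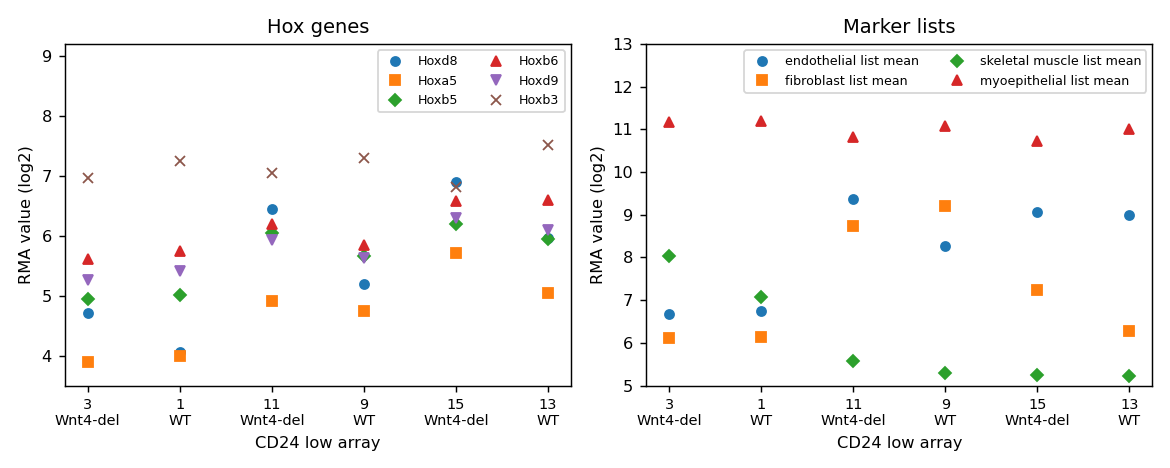
RMA values (log2) on the 6 CD24 low arrays: 6 Hox genes on the left, and the means of the endothelial, fibroblast, skeletal muscle and myoepithelial marker lists on the right, with the Wnt4-deleted array of each run left of its WT array. Arrays 3 and 1 have the lowest endothelial means (6.67 and 6.75) and the lowest fibroblast means (6.12 and 6.13). They also have the lowest values of Hoxd8, Hoxa5, Hoxb5, Hoxb6 and Hoxd9.

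Deletion of Wnt4, which encodes a Wnt ligand made by luminal cells downstream of progesterone, was followed by no called change of any Hox gene. In CD24 high cells 0 of 37 passed (limma, lowest unadjusted p = 0.056, none under 0.05), and in CD24 low cells 0 passed, with 2 at an unadjusted p under 0.05. Of all 19938 genes, 396 in CD24 high and 610 in CD24 low cells had an unadjusted p under 0.05 by limma. The design called 0.00502% of all genes in each fraction, a single gene, a (nonagouti, a coat colour gene), in both. It read 7.30 to 8.33 on the Wnt4-deleted arrays, against 5.0 to 5.37 on the WT arrays, and whether the genotypes also differed in genetic background was not tested. All adjusted p of Hox genes were 1.0. The median Hox difference, Wnt4-deleted minus WT, was -0.07 in CD24 high and 0.02 in CD24 low cells, beside -0.03 and -0.02 over all genes.

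The 2 genes with the smallest p in CD24 low cells were Hoxa4 and Hoxb3, both paralogs of the front part of their clusters. Hoxa4 read 5.6, 6.02 and 5.79 in Wnt4-deleted CD24 low cells, against 6.21, 6.02 and 6.48 in WT CD24 low cells, with the highest Wnt4-deleted and the lowest WT array nearly equal. The difference was -0.43 (95% interval -0.76 to -0.11, unadjusted p = 0.0138 by limma). In CD24 high cells it read 5.71, 5.87 and 5.64 in Wnt4-deleted, against 6.08, 5.92 and 5.90 in WT, a difference of -0.23 (95% interval -0.55 to 0.10). Hoxa4 was below WT in each run in both fractions, by 0.01 to 0.68.

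Hoxb3 differed by -0.41 in CD24 low cells (95% interval -0.73 to -0.10, unadjusted p = 0.0142 by limma), with the 3 Wnt4-deleted arrays at 6.81 to 7.04 and the 3 WT arrays at 7.25 to 7.51. In CD24 high cells its difference was -0.02 (95% interval -0.33 to 0.29). Hoxc12, next by p in CD24 low cells, differed by -0.17 and lay below the reference. Non-overlap of the 3 Wnt4-deleted and 3 WT arrays occurred for 3 of 37 Hox genes in CD24 low cells, against 6.77% of all genes, and for 4 of 37 in CD24 high cells, against 7.0% of all genes.

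The first 3 by p in CD24 high cells were Hoxa10 (-0.25, 95% interval -0.50 to 0.01), Hoxa4 and Hoxb1 (-0.12, 95% interval -0.33 to 0.09). Hoxa10, an abdominal and uterine patterning gene, read 4.03, 4.20 and 3.86 in Wnt4-deleted, against 4.30, 4.36 and 4.18 in WT CD24 high cells, all below the reference. Hoxb1, a hindbrain gene, read 6.12, 6.20 and 6.15 in Wnt4-deleted, against 6.38, 6.22 and 6.22 in WT CD24 high cells.

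Hoxd8 had the widest interval in both fractions. Its difference was -0.06 (95% interval -1.26 to 1.15) in CD24 high cells and 0.94 (95% interval -0.26 to 2.14, unadjusted p = 0.113 by limma) in CD24 low cells, with Wnt4-deleted above WT in each run of CD24 low cells by 0.64, 1.25 and 0.93. The median interval reached 0.40 to either side of its estimate in both fractions, so a smaller Wnt4 effect on a typical Hox gene could not be told from none.

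No Hox gene differed in its Wnt4 effect between the fractions (0 called, and 0.0% of all genes). None of the Hox genes had an unadjusted p under 0.05 by limma, which 273 of all 19938 genes had. The effect in CD24 low minus that in CD24 high cells was -0.39 for Hoxb3 (95% interval -0.83 to 0.05, unadjusted p = 0.0778), 0.24 for Hoxa10 (95% interval -0.12 to 0.60) and 1.0 for Hoxd8 (95% interval -0.70 to 2.70).

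**Figure D5:**
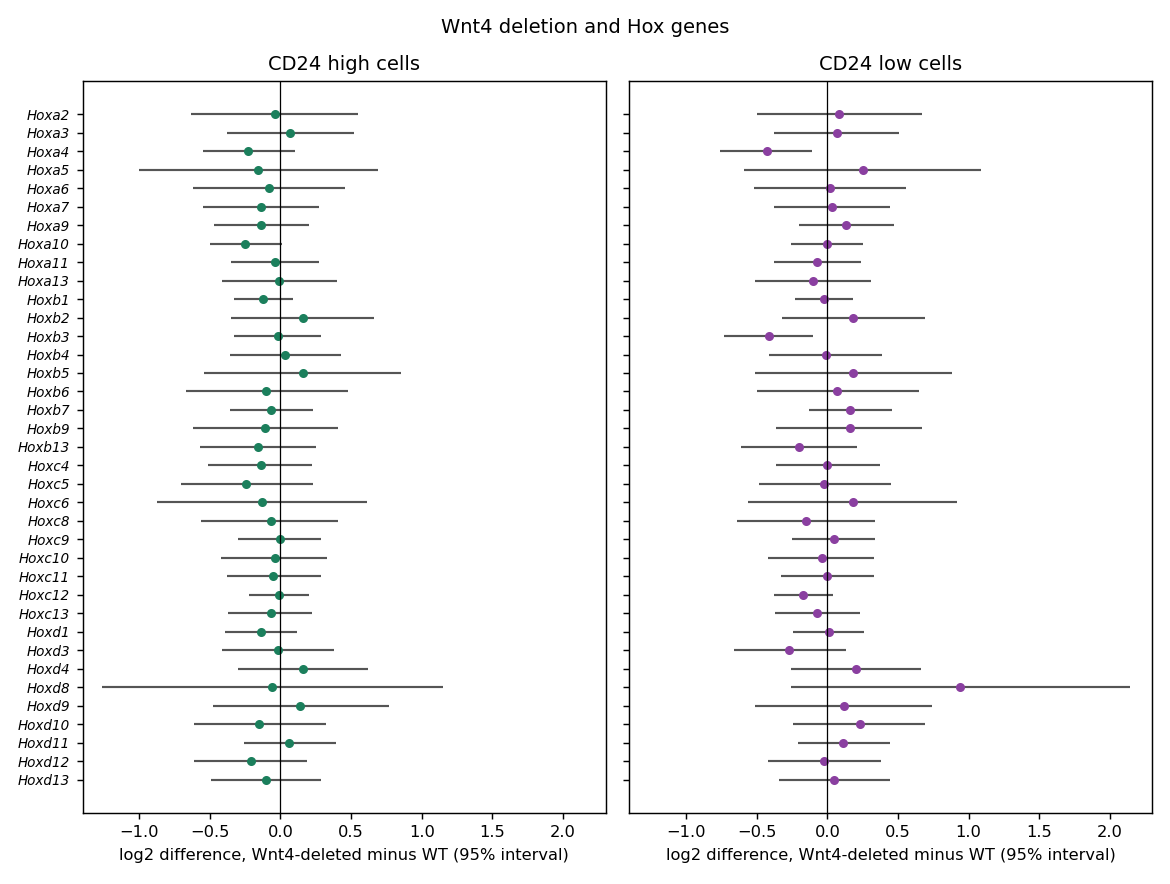
Log2 difference, Wnt4-deleted minus WT, of each Hox gene in CD24 high cells (left) and CD24 low cells (right), with the 95% interval of the limma fit; n = 3 arrays per group. In CD24 low cells only the intervals of Hoxa4 and Hoxb3 leave out 0, and in CD24 high cells none does.

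Partners and regulators of Hox proteins were compared between the fractions in the same fit, in which 27.7% of all genes were called. The TALE homeodomain proteins bind DNA together with Hox proteins, and 4 of 8 measured differed: Pknox2 (-1.60, SE 0.11) and Pbx3 (-1.45, SE 0.22) were lower in CD24 high cells, and Meis1 (0.78, SE 0.13) and Meis3 (0.28, SE 0.08) were higher, with the highest adjusted p of the 4 at 0.0267. Pknox2 averaged 5.65 in Wnt4-deleted and 5.6 in WT CD24 high cells, against 7.29 in Wnt4-deleted and 7.17 in WT CD24 low cells. Pbx2, Pbx4, Meis2 and Pknox1 were not called.

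Of 29 measured Polycomb genes, whose products keep Hox chromatin silent, 6 were higher and 6 lower in CD24 high cells. Yaf2 (-1.11, SE 0.17), a subunit of variant PRC1 complexes, had the most negative difference. Phc3 (0.72, SE 0.12), Pcgf1 (0.72, SE 0.18) and Bmi1 (0.66, SE 0.15), also PRC1 subunits, were higher. The PRC2 core genes Ezh2 (-0.06, SE 0.13), Eed (-0.01, SE 0.13) and Suz12 (0.14, SE 0.10) were not called. Of 15 trithorax and H3K27 demethylase genes, which oppose Polycomb, Rbbp5 was higher (0.56, SE 0.11) and Kdm6b lower (-0.58, SE 0.14).

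Retinoic acid switches on the front genes of the Hox clusters, and 7 of 17 genes of its pathway differed, 3 higher and 4 lower in CD24 high cells. Aldh1a3, which makes retinoic acid and is also in the luminal progenitor list, was higher by 4.16 (SE 0.32), and Crabp2, a carrier of retinoic acid, by 1.38 (SE 0.34). Aldh1a1, another enzyme that makes it, was lower (-1.08, SE 0.22), and Dhrs3, which turns retinal back to retinol, was higher (0.99, SE 0.20). None of 8 ParaHox and Evx genes, the relatives of Hox genes outside or at the end of the clusters, was called (none had an unadjusted p under 0.05), and Evx2, next to Hoxd13, differed by -0.08 (SE 0.08). Of 13 other developmental transcription factors 3 were higher and 4 lower, among them Dlx5 (2.89, SE 0.38) and Prrx1 (-3.06, SE 0.26), a mesenchymal gene, both picked after their values were seen. No member of these lists was called for Wnt4 deletion in either fraction.

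The clusters also hold non-coding RNAs, of which 10 were measured and 1 was called. Hoxd3os1, antisense to Hoxd3, differed by -0.35 (SE 0.08, adjusted p = 0.00553), with means of 4.71 in Wnt4-deleted and 4.65 in WT CD24 high cells, against 5.02 in Wnt4-deleted and 5.04 in WT CD24 low cells, all at or below the reference. Hottip (-0.07, SE 0.11), Hoxaas2 (-0.14, SE 0.14) and Haglr (-0.02, SE 0.13) were not called.

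The mir-10 and mir-196 genes are shown by their mature sequences, because these families repeat across the clusters as the Hox genes do and their members target Hox mRNAs; capitals mark the seed, bases 2 to 8. The sequences are those of RefSeq (GRCm38.p6).
mmu-miR-10a-5p: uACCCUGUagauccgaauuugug
mmu-miR-10b-5p: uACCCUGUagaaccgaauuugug
mmu-miR-196a-5p: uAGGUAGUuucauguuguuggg
mmu-miR-196b-5p: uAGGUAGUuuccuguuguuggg
The first 2 share a seed and differ at U12A, and the last 2 share another and differ at A12C, counted from the 5′ end with the base of the a form first. Mir10a lies in HoxB and Mir10b in HoxD, and Mir196a-1, Mir196a-2 and Mir196b lie in HoxB, HoxC and HoxA. Mir615 of HoxC belongs to neither family. The probesets read 2.27 to 2.74 for Mir10a, 2.38 to 2.69 for Mir10b and 3.49 to 4.67 for the Mir196 genes over the 12 arrays, all below the reference, and 6.48 to 7.03 for Mir615, above it in all 4 groups. Their fraction differences were 0.00 (SE 0.09) for Mir10a, -0.03 (SE 0.07) for Mir10b, 0.01 (SE 0.09) for Mir615 and -0.10 to 0.09 for the Mir196 genes, none called. Whether these gene-array probesets report the mature RNAs printed above was not tested. The values therefore do not show that the mature RNAs are absent or alike in the fractions.

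The genes that flank the clusters were read as well. Of 24 neighbours, the 3 nearest named measured genes on each side of each cluster, 5 were called between the fractions (20.8%), with a median of 0.08. Agps (1.87, SE 0.18), Hibadh (0.85, SE 0.11) and Skap2 (0.66, SE 0.14) were higher in CD24 high cells, and Nfe2l2 (-1.0, SE 0.21) and Calcoco1 (-0.36, SE 0.09) were lower. Lnpk and Mtx2, which flank the HoxD cluster that holds Hoxd8 and Hoxd9, differed by 0.04 (SE 0.12) and 0.16 (SE 0.19) and were not called.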

How the data were processed

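Trizol RNA of sorted cells was amplified with Ovation kits and measured on 12 Affymetrix gene arrays, 3 in each of 4 groups. The authors deposited log2 values made with RMA in Affymetrix Expression Console 1.1.2800, a method that corrects background, quantile-normalizes the arrays and sums up probes; scanner files were not used here. RMA draws dim signals together, so differences of dim genes are understated. Array medians ran from 5.64 to 5.82, and arrays of a group correlated at 0.963 to 0.991. The number of arrays limits the precision; arrays give no read depth.

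Of 35556 probesets, 21789 had a single gene symbol in GEO's platform annotation, 1621 had several and 12146 had no entry in the table used. For 999 genes with more than 1 probeset the one with the highest mean was kept, which left 19938 genes. Groups came from the sample labels. Values were fitted with limma 3.58.1 in R 4.3.3, as a model of the 4 group means (8 residual degrees of freedom, 11.05 after moderation), for 6 comparisons; tests were two-sided, and p-values were adjusted by Benjamini-Hochberg over all genes within a comparison at a threshold of 0.05. Intervals are 95% intervals of the moderated fit. The script was tested on simulated data. Alternatives were another choice of probesets, a filter on dim genes (below the 40th percentile), other normalizations, priors, weights and thresholds, the runs of array numbers as a block, marker means as covariates, and leaving out arrays. Members and gene lists were chosen with earlier results of these data known. Named genes were the Hox genes called between fractions, the 3 with the smallest p in each Wnt4 comparison, the 2 smallest in the difference of effects, up to 4 called members per other list with the greatest differences, and cluster neighbours; Hoxa5, Hoxb5 and others outside this rule were picked after their values were seen.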

Additional observations from a re-analysis of the deposited data

How the results depend on the processing

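The count of Hox genes that differed between the fractions over both genotypes, 4 in the fit given, was 2 without dim genes, where only 6 Hox genes were tested (33.3% of them, against 41.5% of all genes), 11 with array weights (29.7%, against 35.7% of all genes), 1 with the fibroblast (19.0% of all genes) and 1 with the endothelial covariate (16% of all genes), 13 without arrays 1 and 3 (28.0% of all genes), 2 without arrays 9 and 11 (22.3% of all genes), 11 with arrays 9 to 16 only (29.7% of the Hox genes and of all genes), 1 at an adjusted p of 0.01 and 9 at an unadjusted p of 0.05, and ran from 2 to 13 when each array was left out in turn. The count within Wnt4-deleted cells, 1 in the fit given, was 2 with a second quantile normalization, 5 with array weights, 4 with the runs as a fixed and 2 as a random block, 0 with either covariate, 8 without arrays 1 and 3, 0 without arrays 9 and 11, 7 with arrays 9 to 16 only, 0 with only the groups compared, 0 at an adjusted p of 0.01 and 7 at an unadjusted p of 0.05, and 0 to 8 with each array left out. The count within WT cells, 2 in the fit given, was 0 with median centring, 1 with an intensity trend and robust prior, 0 with either covariate, 5 without arrays 1 and 3, 0 without arrays 9 and 11, 4 with arrays 9 to 16 only and 0 at an adjusted p of 0.01, and 0 to 3 with each array left out. In the fit given, 16.4% of all genes were called within Wnt4-deleted and 16.1% within WT cells. The share of all genes in each alternative within a genotype is not reported here. These counts therefore do not set the Hox genes apart from other genes. At an unadjusted p of 0.05 by limma, 7283 of all 19938 genes passed over both genotypes and 5553 within Wnt4-deleted cells. The count for Wnt4 deletion in CD24 low cells was 0 except for 2 at an unadjusted p of 0.05, which 610 of all 19938 genes passed. The count was 0 under every alternative run in CD24 high cells and for the difference of effects. With the endothelial covariate the fraction difference turned to 0.49 for Hoxd8, 0.33 for Hoxa5 and 0.55 for Hoxb5, and 19 of all 37 Hox estimates turned, among them Hoxb2 to 0.36, Hoxb9 to 0.11, Hoxa9 to 0.07 and Hoxc6 to 0.06. Hoxb6 kept its call over both genotypes under all alternatives run for it except the endothelial covariate, Hoxd9 lost it under both covariates, Hoxd8 in 12 of 24 alternatives and Hoxb3 in 17 of 25. The causes were not tested, beyond the fewer genes tested in the filtered fit. No paired fit was run, because every array has its own number and the labels do not say which arrays share a source. The runs as a block stand in its place. Signals near the olfactory reference limit what can be said of 23 genes, and 3 arrays per group limit the Wnt4 comparisons.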
